A study of Mus musculus with 12 samples.

Results

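Interferons are secreted proteins that warn cells of infection. They bind paired receptors on the cell surface, and Janus kinases then activate STAT proteins that, with IRF9 in the type I response, enter the nucleus and switch on a shared set of antiviral genes. Type I interferon works largely through a promoter element called ISRE, and interferon gamma through an element called GAS. A low level of the response is kept up in many tissues without infection.

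The 34 interferon response genes described here were chosen by name, as the genes whose symbol in the probe annotation is one of a list of STAT and IRF factors, interferon-induced GTPases, antiviral effectors, and regulators of the response. Of the 34, 33 had a probe, and 27 had one that passed the filter on dim signal and was tested. They held 61 probes, 45 of them tested, among 45281 probes for 19057 genes in the whole series, of which 20995 probes for 11292 genes were tested. Ifi44 was not analysed here. Ifit1, Oas1a, Oas3, Mx1, Ifih1 and Xaf1, which encode antiviral effectors, an RNA sensor and, for Xaf1, an antagonist of the apoptosis inhibitor XIAP, had no tested probe. The probes of these 6 genes were not above background in any of the 8 samples by the mean detection p, although the Ifih1 probe was above it on 1 array of ovx luminal cells.

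Gene expression was measured on Illumina BeadChips in sorted mammary cells of female FVB/NJ mice, an inbred strain. The 4 groups were MaSC-enriched cells from ovariectomized (ovx) mice, MaSC-enriched cells from control mice, luminal cells from ovx mice and luminal cells from control mice, with 2 RNA samples each. The ovx mice lost their ovaries, the main source of oestrogen and progesterone, at 8 weeks of age, and their glands were taken 4 weeks later in pools of 6 mice. The control mice are described only as 2 pools, so their age, pool size and any sham surgery are not given in the sources used here. MaSC-enriched stands for the mammary stem cell-enriched sort (CD29hi CD24+), a gate that also takes in basal and myoepithelial cells, and the luminal sort was CD29lo CD24+. Both were taken from cells negative for CD45, CD31 and TER119, surface markers of blood and endothelial cells, at a stated purity over 90%. Each of the 4 mouse pools gave 1 sample of each fraction, so a mouse pool is the replicate. Within a treatment, replicate 1 of both fractions came from 1 pool and replicate 2 of both fractions from the other. The labels name no interferon treatment and no infection.

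Promoter sequence is shown for the members with a probe past the test threshold between the cell fractions and a window in RefSeq. Of their windows, only those with a match to ISRE or GAS in the stretch printed are shown. Irf1 and Gbp3 each have another window, which holds no ISRE or GAS match and is not shown. Each line holds the last 120 bases before the gene start in the reference genome (build GRCm38.p6, not the FVB/NJ sequence), 5′ to 3′ on the gene's strand. Capitals mark matches to the ISRE core, which is GAAA, any 2 bases and GAAA (TTTC, any 2 bases and TTTC on the other strand), and to the GAS core, which is TTC, any 3 bases and GAA on either strand. In Gbp3 and Irgm1 a pair of ISRE matches overlap.
Irgm1, chr11:48871421-48871540, minus strand: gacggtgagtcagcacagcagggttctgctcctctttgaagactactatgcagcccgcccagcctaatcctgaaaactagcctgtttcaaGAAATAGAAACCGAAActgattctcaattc
Gbp3, chr3:142559924-142560043, plus strand: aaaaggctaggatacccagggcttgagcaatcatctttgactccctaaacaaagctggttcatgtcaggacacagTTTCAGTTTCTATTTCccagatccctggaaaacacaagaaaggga
Igtp, chr11:58199436-58199555, plus strand: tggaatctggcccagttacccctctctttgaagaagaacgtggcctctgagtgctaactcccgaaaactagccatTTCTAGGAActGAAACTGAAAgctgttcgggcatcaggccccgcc
Irf1, chr11:53769894-53770013, plus strand: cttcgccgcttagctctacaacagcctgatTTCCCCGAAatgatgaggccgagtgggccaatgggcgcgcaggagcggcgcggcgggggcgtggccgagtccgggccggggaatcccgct
The ISRE matches of Irgm1 began 30 and 24 bases before the start, those of Gbp3 45 and 39 bases before it, and that of Igtp 34 bases before it. A GAS match lay 45 bases before the start in Igtp and 90 bases before it in Irf1.

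Windows of 300 bases, 250 before and 50 from the gene start, were held by RefSeq for 26 of the 34 members. An ISRE match was found in 15 of these 26 members (57.7%), against 3.99% of all 27025 genes with a window, and a GAS match in 8 of 26 (30.8%), against 9.55% of all genes. Of the 32 single windows of the members 46.9% held an ISRE match, against 3.44% of all 32851 windows. The list was made of genes known to respond to interferon, so these shares describe the list. A match is a run of letters and was not tested as a binding site.

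**Figure D1:**
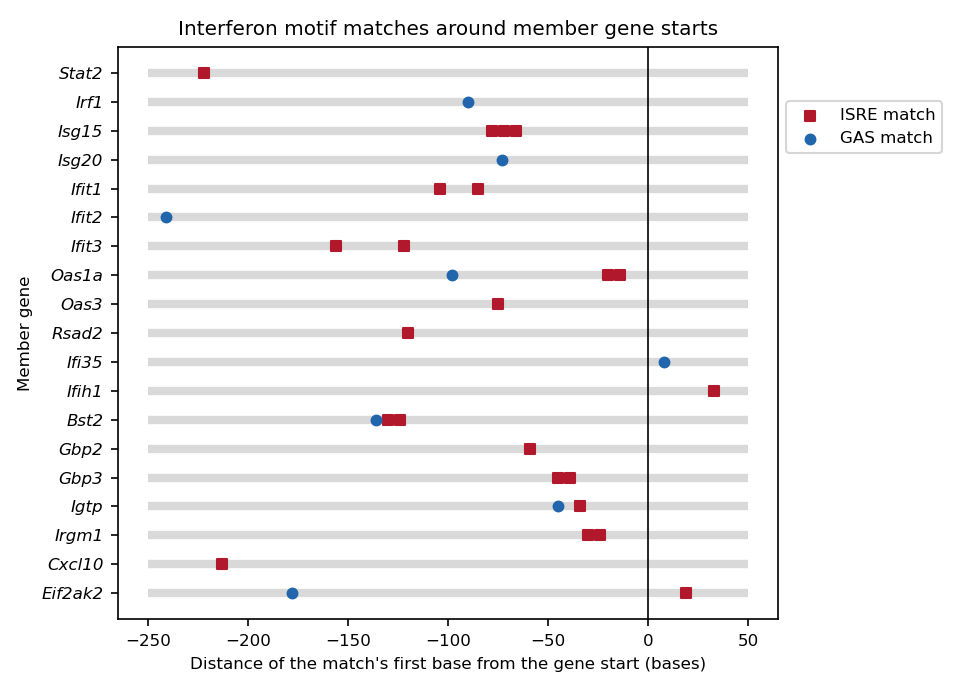
Positions of ISRE (squares) and GAS (circles) core matches in 300-base windows around the starts of the 19 members that held either; the x axis gives the distance of a match's first base from the gene start, and the grey bar is the window searched. Most of the matches lie before the start, among them the paired ISRE matches of Gbp3 and Irgm1 within 45 bases of it.

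Signal was background-corrected, quantile normalized and expressed on a log2 scale, so a difference of 1 is a doubling, and a gene is represented by its tested probe with the highest mean. The only array of control MaSC-enriched replicate 1 was dimmer than the rest: 12994 probes were above background there, with a lowest log2 signal of 7.29, against 17705 to 18903 probes and 5.73 to 5.93 on the other 11 arrays. Of the 61 member probes, 30 were detected on that array and 34 to 42 on the others. The control replicate 2 pool also stood apart, since 12 tested proliferation genes averaged a log2 signal of 10.87 in its MaSC-enriched and 11.40 in its luminal sample, against 7.51 to 8.64 in the other 6 samples. The sorts carried their labels: all 9 tested basal markers were higher in the 4 MaSC-enriched than in the 4 luminal samples, and 7 of 9 tested luminal markers were lower in all 4. Of these, the basal marker Cnn1 and the luminal marker Prom1 were not above background in control MaSC-enriched replicate 1. Their places in that sample are not measured ones. With 2 samples a group the smallest exact two-sided permutation p is 0.333, and the model fitted here, limma, borrows information on the spread from all probes. A probe was called at an adjusted p (limma, Benjamini-Hochberg over all 20995 tested probes) under 0.05.

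The first comparison set MaSC-enriched against luminal cells. In ovx mice the guanylate-binding protein gene Gbp3 and the immunity-related GTPase gene Igtp were higher in MaSC-enriched cells, by 3.08-fold and 3.55-fold, and Usp18, which encodes the protease that removes ISG15 from proteins and dampens type I interferon signalling, was 3.55-fold lower. A probe of Irgm1, another immunity-related GTPase, was higher in MaSC-enriched cells in both treatments. The members did not move as a block: the median difference over the 27 genes was 0.31 log2 units in ovx and 0.21 in control mice, beside -0.08 and -0.12 over all 11292 genes, and single genes ran from -1.95 to 2.21 in ovx and from -1.67 to 2.44 in control mice. In ovx mice 3 of 27 member genes (11.1%) passed the limma test, 2 higher and 1 lower, against 14.6% of all tested genes, 8.91% higher and 5.65% lower. In control mice 0 of 27 passed, against 11.8% of all tested genes, 6.91% higher and 4.85% lower; 8 of the 27 (29.6%) had an unadjusted limma p under 0.05, against 28.2% of all tested genes. By probes, 5 of 45 (11.1%) passed in ovx mice against 12.4% of all probes, and 1 of 45 (2.22%) in control mice against 10.1%. In this fit, which has no pool term, the share of members called was no higher than that of all genes in either treatment.

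**Figure D2:**
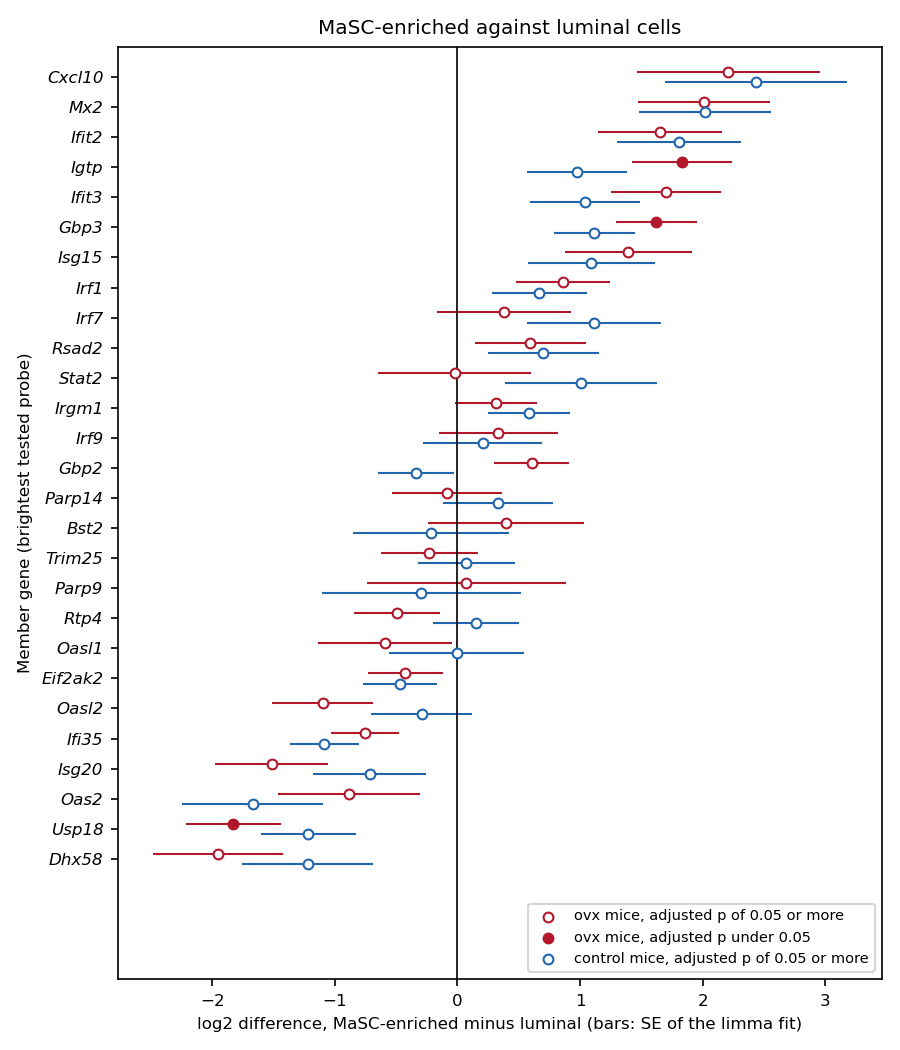
MaSC-enriched minus luminal log2 difference (x axis, with the SE of the limma fit) for the 27 tested member genes in ovx (red) and control (blue) mice; filled points passed the adjusted p threshold of 0.05. Cxcl10 has the highest difference in both treatments, Dhx58 the lowest in ovx and Oas2 the lowest in control mice, and the filled points are Igtp, Gbp3 and Usp18 in ovx mice.

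The GTPase genes encode proteins that act on the membranes of vacuoles holding pathogens or, for the Mx proteins, on viruses. Gbp3 had a log2 signal of 9.98 and 9.63 in ovx MaSC-enriched, 9.38 and 9.52 in control MaSC-enriched, 8.21 and 8.17 in ovx luminal, and 8.02 and 8.65 in control luminal cells (replicates 1 and 2, as in all such lists below). Every MaSC-enriched sample was above every luminal one. The difference was 1.62 ± 0.33 (SE) in ovx mice, limma adjusted p = 0.0214, and 1.11 ± 0.33 in control mice, limma adjusted p = 0.0806. Its other probe, ILMN_2918002, gave 1.48 in ovx and 0.97 in control mice, with limma adjusted p values of 0.0667 and 0.201.

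Igtp encodes a GTPase that interferon gamma induces strongly in the mouse. Its log2 signal was 11.004 and 10.07 in ovx MaSC-enriched, 10.31 and 9.95 in control MaSC-enriched, 8.77 and 8.64 in ovx luminal, and 8.86 and 9.44 in control luminal cells. The 4 MaSC-enriched samples again lay above the 4 luminal ones, and ovx MaSC-enriched replicate 1 was the highest. The difference was 1.83 ± 0.41 in ovx mice, limma adjusted p = 0.0291, and 0.98 ± 0.41 in control mice, limma adjusted p = 0.182.

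Irgm1 had 3 tested probes that differed in size. On probe ILMN_1234539 the log2 signal was 10.93 and 10.98 in ovx MaSC-enriched, 10.94 and 10.63 in control MaSC-enriched, 9.42 and 9.46 in ovx luminal, and 9.14 and 8.91 in control luminal cells. The fractions did not overlap, and replicates were close, with an SD of 0.03 in both ovx groups. The difference was 1.51 ± 0.29 in ovx mice, limma adjusted p = 0.0161, and 1.76 ± 0.29 in control mice, limma adjusted p = 0.0115, or 2.85-fold and 3.39-fold. The brightest Irgm1 probe, ILMN_2804037, had 14.37 and 13.91 in ovx MaSC-enriched, 14.40 and 13.81 in control MaSC-enriched, 13.83 and 13.83 in ovx luminal, and 13.61 and 13.45 in control luminal cells. There the fractions were apart within each pool by less, with differences of 0.31 ± 0.34 in ovx and 0.58 ± 0.34 in control mice (limma adjusted p = 0.643 and 0.313). The third probe, ILMN_2711172, was not above background on the 3 control luminal arrays and was at least 1.85-fold higher in control MaSC-enriched cells (limma adjusted p = 0.275); in ovx mice its adjusted p was 0.178, so 1 of the 3 probes passed.

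Mx2 encodes a dynamin-like antiviral GTPase. It had a log2 signal of 10.05 and 9.29 in ovx MaSC-enriched, 10.04 and 8.46 in control MaSC-enriched, 7.67 and 7.64 in ovx luminal, and 7.41 and 7.06 in control luminal cells. The fractions were apart in all 8 samples and the differences were alike, 2.01 ± 0.54 in ovx and 2.02 ± 0.54 in control mice, but the replicates of each MaSC-enriched group were spread widely and neither passed (limma adjusted p = 0.0538 and 0.0604). Gbp2, a guanylate-binding protein gene, had 12.40 and 12.42 in ovx MaSC-enriched, 11.86 and 11.89 in control MaSC-enriched, 11.63 and 11.98 in ovx luminal, and 12.44 and 11.98 in control luminal cells. Its differences were 0.60 ± 0.31 in ovx and -0.34 ± 0.31 in control mice, neither of which passed (limma adjusted p = 0.275 and 0.512).

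The levels of 8 members, with their replicates, are plotted on 1 scale.

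**Figure D3:**
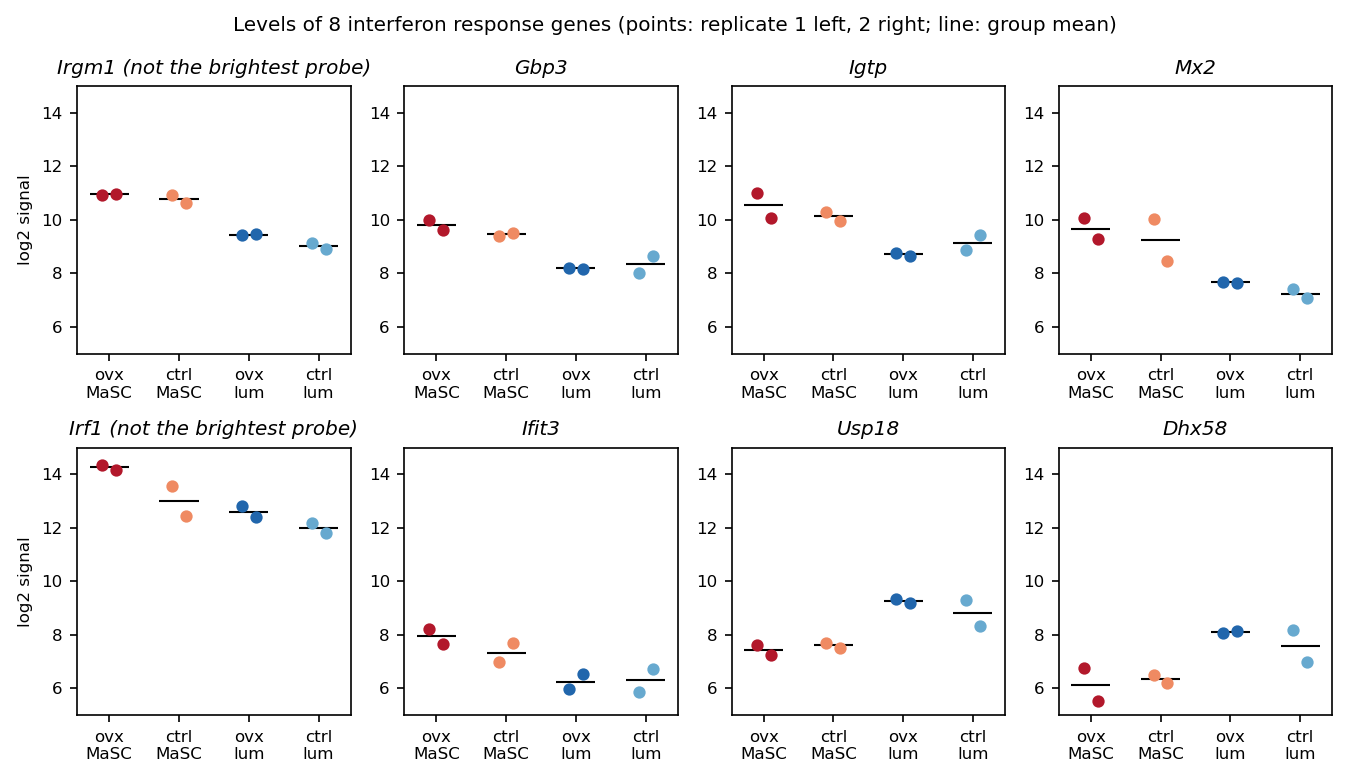
Log2 signal of 8 members in ovx MaSC-enriched, control MaSC-enriched, ovx luminal and control luminal cells; points are the 2 replicates (1 left, 2 right) and lines the group means. Irgm1 (probe ILMN_1234539), Gbp3, Igtp, Mx2 and Ifit3 are higher in every MaSC-enriched than in every luminal sample, Usp18 and Dhx58 are lower, and the Irf1 probe (ILMN_2599782) is highest in ovx MaSC-enriched cells. The Ifit3 and Dhx58 points of control MaSC-enriched replicate 1 were not above background.

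Among the transcription factors, Irf1 is induced early by interferon gamma. Its brightest probe had a log2 signal of 14.96 and 15.16 in ovx MaSC-enriched, 14.61 and 13.78 in control MaSC-enriched, 14.36 and 14.03 in ovx luminal, and 13.78 and 13.27 in control luminal cells. The MaSC-enriched sample was above the luminal sample of its own pool in all 4 pools, with differences of 0.86 ± 0.38 in ovx and 0.67 ± 0.38 in control mice that did not pass (limma adjusted p = 0.212 and 0.312). Probe ILMN_2599782 had 14.36 and 14.16 in ovx MaSC-enriched, 13.56 and 12.43 in control MaSC-enriched, 12.81 and 12.40 in ovx luminal, and 12.17 and 11.79 in control luminal cells. On that probe the difference in ovx mice, 1.65 ± 0.43 or 3.14-fold, passed with a limma adjusted p of 0.0488, and that in control mice, 1.01 ± 0.43, did not (limma adjusted p = 0.189). The other 3 Irf1 probes gave 1.76 to 2.08 in ovx mice and -0.11 to 0.78 in control mice, and none of these passed. With the mouse pool as a block, 3 of the 5 probes passed in ovx mice, ILMN_2599782 (limma adjusted p = 0.0329), ILMN_2649067 (0.0277) and ILMN_2649068 (0.022).

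Stat2, Irf9 and Irf7 carry the type I signal to the promoter or amplify it. Stat2 had a log2 signal of 9.76 and 9.02 in ovx MaSC-enriched, 10.10 and 8.61 in control MaSC-enriched, 9.42 and 9.40 in ovx luminal, and 9.02 and 7.68 in control luminal cells. Irf7 had 8.00 and 6.65 in ovx MaSC-enriched, 7.76 and 6.72 in control MaSC-enriched, 6.77 and 7.13 in ovx luminal, and 6.35 and 5.90 in control luminal cells. Both genes overlapped between the fractions in ovx mice and varied by over 1 log2 unit between the control MaSC-enriched replicates. Their differences in control mice, 1.01 ± 0.62 for Stat2 and 1.11 ± 0.54 for Irf7, did not pass (limma adjusted p = 0.341 and 0.246). The brightest Irf9 probe differed by 0.33 in ovx and 0.21 in control mice, and its other probe, ILMN_2636339, by -0.0025 and -0.74.

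Of the ISG15 system, Isg15 encodes a ubiquitin-like protein and Usp18 the enzyme that takes it off. Usp18 had a log2 signal of 7.63 and 7.23 in ovx MaSC-enriched, 7.69 and 7.51 in control MaSC-enriched, 9.33 and 9.18 in ovx luminal, and 9.29 and 8.35 in control luminal cells. Every luminal sample was above every MaSC-enriched one. The difference was -1.83 ± 0.39 in ovx mice, limma adjusted p = 0.024, and -1.22 ± 0.39 in control mice, limma adjusted p = 0.0959. Its second probe was not above background on the 3 ovx MaSC-enriched arrays, at least 1.63-fold lower than in ovx luminal cells, and did not pass (limma adjusted p = 0.2).

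Isg15 had a log2 signal of 8.90 and 9.02 in ovx MaSC-enriched, 9.57 and 8.11 in control MaSC-enriched, 7.14 and 7.98 in ovx luminal, and 7.74 and 7.75 in control luminal cells. It lay the other way from Usp18, with all 4 MaSC-enriched samples above all 4 luminal ones and differences of 1.39 ± 0.52 in ovx and 1.09 ± 0.52 in control mice that did not pass (limma adjusted p = 0.139 and 0.236).

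Dhx58 encodes LGP2, a regulator of the RIG-I family of viral RNA sensors. It had a log2 signal of 6.75 and 5.53 in ovx MaSC-enriched, 6.51 and 6.21 in control MaSC-enriched, 8.05 and 8.13 in ovx luminal, and 8.19 and 6.98 in control luminal cells. It was detected on 1 of 3 ovx MaSC-enriched and 2 of 3 control MaSC-enriched arrays, and on all 6 luminal arrays. The difference was -1.95 ± 0.53 in ovx mice, limma adjusted p = 0.0565, and -1.22 ± 0.53 in control mice, limma adjusted p = 0.199. Ifi35, an interferon-induced leucine zipper protein gene, had 9.20 and 9.07 in ovx MaSC-enriched, 8.84 and 8.77 in control MaSC-enriched, 9.78 and 9.99 in ovx luminal, and 9.96 and 9.82 in control luminal cells. Its fractions were apart in all samples by a smaller step, -0.75 ± 0.28 in ovx and -1.09 ± 0.28 in control mice (limma adjusted p = 0.136 and 0.0531).

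The remaining effectors were split. Ifit2 and Ifit3 encode members of a family of antiviral proteins, some of which bind viral RNA and block its translation. Ifit2 had a log2 signal of 8.11 and 8.32 in ovx MaSC-enriched, 8.26 and 8.57 in control MaSC-enriched, 6.62 and 6.51 in ovx luminal, and 5.81 and 7.40 in control luminal cells. Ifit3 had 8.22 and 7.67 in ovx MaSC-enriched, 6.98 and 7.69 in control MaSC-enriched, 5.97 and 6.52 in ovx luminal, and 5.86 and 6.73 in control luminal cells. Neither gene overlapped between the fractions by its brightest probe, but the Ifit3 value of control MaSC-enriched replicate 1 was not above background. It lay below the lowest detected log2 signal of that array, 7.29, so its place above the luminal values is not a measured one. Ifit2 differed by 1.65 ± 0.51 in ovx and 1.81 ± 0.51 in control mice (limma adjusted p = 0.0812 and 0.0688), and Ifit3 by 1.70 ± 0.45 and 1.04 ± 0.45 (limma adjusted p = 0.0508 and 0.195). The other tested Ifit3 probe, ILMN_1230458, differed by 0.38 in ovx and -0.17 in control mice and did not pass.

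Cxcl10 encodes a chemokine that draws activated T cells. Its log2 signal was 9.13 and 8.09 in ovx MaSC-enriched, 10.17 and 8.78 in control MaSC-enriched, 5.88 and 6.92 in ovx luminal, and 6.20 and 7.88 in control luminal cells. Of the 27 genes it had the largest difference in both treatments, 2.21 ± 0.74 in ovx and 2.44 ± 0.74 in control mice, but replicates of each group lay over 1 log2 unit apart and neither passed (limma adjusted p = 0.105 and 0.0869).

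Isg20, an antiviral exonuclease gene, had 7.77 and 7.56 in ovx MaSC-enriched, 8.65 and 7.35 in control MaSC-enriched, 9.14 and 9.21 in ovx luminal, and 8.98 and 8.45 in control luminal cells. The fractions were apart in ovx mice, by -1.51 ± 0.46 (limma adjusted p = 0.0793), and overlapped in control mice. Oasl2, of the oligoadenylate synthetase family, had 9.70 and 9.52 in ovx MaSC-enriched, 9.61 and 8.88 in control MaSC-enriched, 10.81 and 10.61 in ovx luminal, and 9.98 and 9.09 in control luminal cells, a difference of -1.10 ± 0.41 in ovx mice (limma adjusted p = 0.141). Oas2, a synthetase that makes the activator of RNase L, was not above background on any of the 3 control MaSC-enriched arrays and averaged a log2 signal of 5.23 there, against 6.90 in control luminal cells, which makes it at least 1.28-fold lower (limma adjusted p = 0.119). Eif2ak2, the gene of the double-stranded RNA-dependent kinase PKR, had 11.29 and 11.06 in ovx MaSC-enriched, 11.10 and 10.84 in control MaSC-enriched, 11.70 and 11.50 in ovx luminal, and 11.63 and 11.25 in control luminal cells. It was lower in the MaSC-enriched sample of each of the 4 pools, by only 0.43 ± 0.30 log2 units in ovx and 0.47 ± 0.30 in control mice, and did not pass (limma adjusted p = 0.455 and 0.363). The members Rsad2, Trim25, Parp9, Parp14, Oasl1, Rtp4 and Bst2, among them the genes of viperin, of a ubiquitin ligase of the RIG-I pathway and of tetherin, differed by -0.59 to 0.70 in both treatments by their brightest probes, and none passed. The other Parp9 probe, ILMN_2486102, differed by -0.71 in ovx and -1.13 in control mice. In control mice it passed with the mouse pool as a random block (limma adjusted p = 0.0373), but not with the pool as a replicate block (0.0846).

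Across all 8 samples, 7 of the 27 members (25.9%) were higher in every MaSC-enriched than in every luminal sample, against 14.3% of all tested genes. These were Cxcl10, Gbp3, Ifit2, Ifit3, Igtp, Isg15 and Mx2. For Ifit3, the value of control MaSC-enriched replicate 1 was not above background. Lower in every MaSC-enriched sample were Dhx58, Ifi35 and Usp18, or 3 of 27 (11.1%), against 15.5% of all tested genes. The Dhx58 value of control MaSC-enriched replicate 1 was not above background either. It lay below the lowest detected log2 signal of that array, 7.29, so its place below the luminal values is not a measured one. The sign of the difference was the same in ovx and control mice for 20 of 27 members (74.1%), against 79.5% of all tested genes. Within a treatment, 12 members were higher and 9 lower without overlap in ovx mice, where 30.1% and 36.9% of all tested genes were, and 10 were higher and 6 lower in control mice, where 23.7% and 29.3% of all tested genes were.

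**Figure D4:**
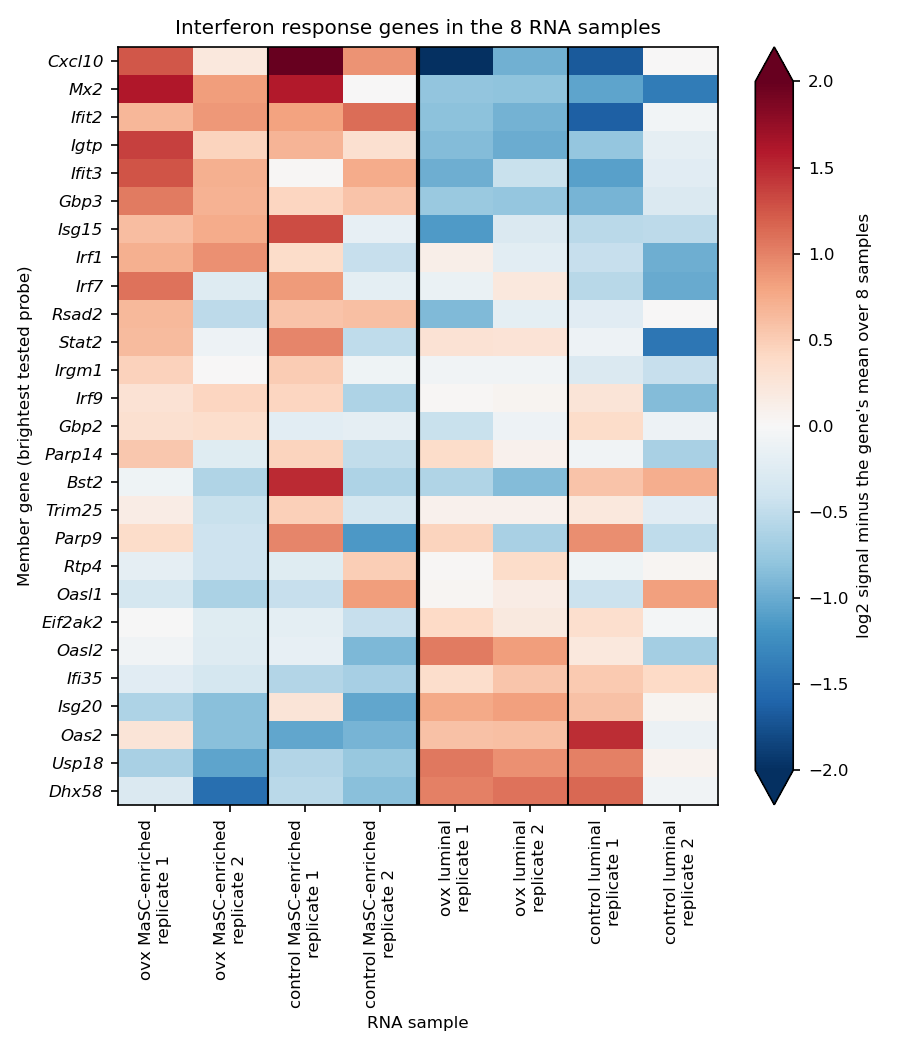
Heat map of the 27 tested member genes (rows) in the 8 RNA samples (columns); colour gives the log2 signal minus the gene's mean over the 8 samples, and rows run from the highest to the lowest MaSC-enriched minus luminal difference. The upper 7 rows are mostly red in the MaSC-enriched columns and blue in most luminal columns, the rows of Usp18 and Dhx58 at the foot mostly show the reverse, and the control replicate 2 columns are blue for Stat2 and Irf9.

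The labels pair the fractions by mouse pool, and with the pool as a block 7 members (25.9%) passed in ovx mice, 4 higher and 3 lower, against 15.3% of all tested genes. These were Gbp3, Igtp, Mx2 (limma adjusted p = 0.0359), Ifit3 (0.0413), Usp18, Dhx58 (0.0455) and Isg20 (0.0434). In control mice 2 (7.41%) passed, Mx2 (0.0423) and Ifit2 (0.0499), against 11.9% of all tested genes. Among dimmer probes, ILMN_2981169 of Ifit2 also passed with the block in ovx mice (limma adjusted p = 0.016), and ILMN_1234539 of Irgm1 in both treatments. The calls also turned on single samples. Without ovx MaSC-enriched replicate 1, or without either ovx luminal replicate, 0 member genes passed in ovx mice, against 2.93% to 7.36% of all tested genes. Without ovx MaSC-enriched replicate 2, 1 did (3.7%, against 5.91%); without one of the control MaSC-enriched replicates, 8 did (29.6%, against 20.3%); and without one of the control luminal replicates, 5 did (18.5%, against 13.5%). With the control replicate 2 pool left out altogether, 11 members (40.7%) passed in ovx mice, against 23.2% of all tested genes, and 5 (18.5%) in control mice, against 21.7%. The median over the members turned to -0.30 in ovx mice without ovx MaSC-enriched replicate 1, and was 0.72 in control mice without control MaSC-enriched replicate 2.

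Markers of other cell types moved with the fractions. Although the sort removed CD31+ cells, all 6 tested endothelial markers of 7 listed, among them Pecam1, which encodes CD31, were higher in every MaSC-enriched than in every luminal sample. Their summed linear signal was 8870 to 25399 in MaSC-enriched and 2049 to 3741 in luminal samples, highest in ovx MaSC-enriched replicate 1, and 6 of the 6 passed the limma test in ovx and 5 in control mice. The listed endothelial marker Kdr was not above background in any sample by its mean detection p. Of 16 immune cell markers 7 were tested, with a summed signal of 2771 to 7164 in MaSC-enriched and 789 to 1647 in luminal samples; 3 of the 7 were higher in every MaSC-enriched sample, and 1, the macrophage lysozyme gene Lyz2, passed in ovx mice. Ptprc, which encodes CD45, Cd3g, Itgam and Fcer1g were not above background in any sample. The 6 fibroblast markers overlapped between the fractions, with sums of 12565 to 23926 in MaSC-enriched and 3543 to 31783 in luminal samples. The part of endothelial and immune cells in the higher signal of Igtp, Gbp3, Irgm1 and the other members was not tested. In bulk RNA, more cells of a type and more RNA per cell cannot be told apart.

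The second comparison set ovx against control mice within each fraction. No member passed the test in either fraction. In MaSC-enriched cells 0 of 27 genes and 0 of 45 probes were called by limma, against 0.0708% of all tested genes and 0.0762% of all probes, and 4 probes (8.89%, against 8.63% of all probes), but 0 genes by their brightest probe (against 9.11% of all genes), had an unadjusted limma p under 0.05. In luminal cells 0 of 27 genes and 0 of 45 probes were called, against 0.195% and 0.157%, with 2 probes (4.44%, against 7.2%) and 1 gene (3.7%, against 8.17%) at an unadjusted limma p under 0.05. The median difference was 0.09 in MaSC-enriched and 0.09 in luminal cells, beside 0.07 and 0.02 over all tested genes. In MaSC-enriched cells 5 members were higher and 0 lower in both ovx than in both control samples, where 21.3% and 13.6% of all tested genes were, and in luminal cells 8 were higher and 3 lower, where 27.7% and 24.2% were.

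**Figure D5:**
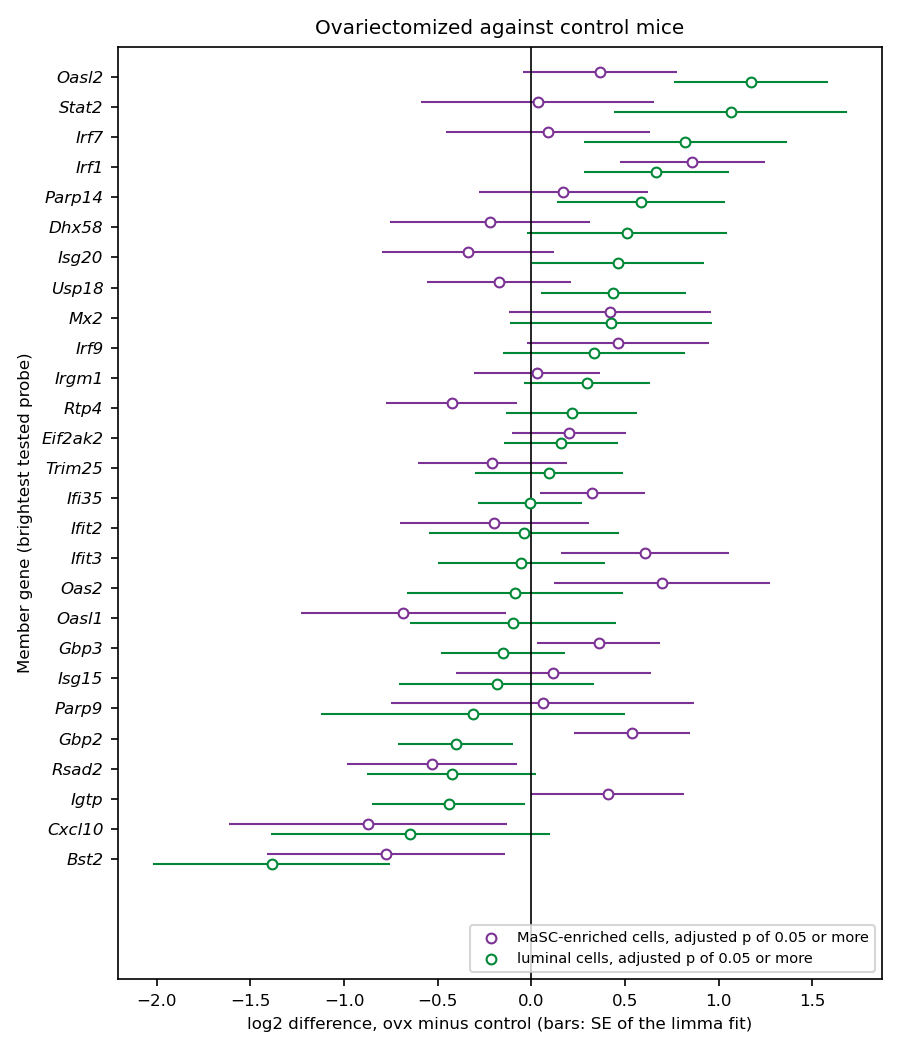
Ovx minus control log2 difference (x axis, with the SE of the limma fit) for the 27 tested member genes in MaSC-enriched (purple) and luminal (green) cells. Open points mark an adjusted p of 0.05 or more, and every point is open, between -1.39 for Bst2 and 1.18 for Oasl2, both in luminal cells.

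In MaSC-enriched cells the 6 members with the smallest p were Irf1, Gbp2, Ifit3, Oasl1, Bst2 and Rtp4. Irf1 was higher in both ovx than in both control samples on all 5 of its probes. The brightest differed by 0.86 ± 0.38 with a limma adjusted p of 0.605, and the 4 others by 1.27 to 2.27 with adjusted p values of 0.303 to 0.463. These 4 were the probes with an unadjusted p under 0.05, between 0.00604 and 0.0228, and their spread was wide in control cells, where ILMN_2649067 had 11.71 and 9.72. Gbp2 was higher by 0.54 ± 0.31, with close replicates in both groups, and did not pass (limma adjusted p = 0.697).

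Ifit3 differed by 0.61 ± 0.45 in MaSC-enriched cells, and its ovx value of 7.67 in replicate 2 overlapped the control values. Bst2, the tetherin gene, had a log2 signal of 7.72 and 7.21 in ovx MaSC-enriched, 9.29 and 7.19 in control MaSC-enriched, 7.20 and 6.94 in ovx luminal, and 8.38 and 8.53 in control luminal cells. In MaSC-enriched cells its difference of -0.78 ± 0.63 rested on control MaSC-enriched replicate 1 and turned to 0.28 without it. Oasl1 had 5.61 and 5.33 in ovx MaSC-enriched, 5.51 and 6.80 in control MaSC-enriched, 6.01 and 6.12 in ovx luminal, and 5.54 and 6.78 in control luminal cells. It was not above background on any of the 3 ovx MaSC-enriched arrays, nor in control MaSC-enriched replicate 1, so no fold is given. The log2 difference in MaSC-enriched cells was -0.68 (limma adjusted p = 0.783). It ran from -1.43 to -0.04 over the alternatives run. Rtp4, a chaperone gene for taste and odorant receptors, had 5.36 and 5.12 in ovx MaSC-enriched, 5.30 and 6.03 in control MaSC-enriched, 5.56 and 5.90 in ovx luminal, and 5.45 and 5.58 in control luminal cells, which is near background in all groups.

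In luminal cells the 6 members with the smallest p were Oasl2, Bst2, Irf1, Stat2, Irf7 and Gbp2. Oasl2 was higher in both ovx samples (10.81 and 10.61) than in both control samples (9.98 and 9.09), by 1.18 ± 0.41. Its limma adjusted p was 0.571, and its dimmer probe differed by 0.90. Bst2 was below both control samples in both ovx samples, a difference of -1.39 ± 0.63 (limma adjusted p = 0.728). Stat2, Irf7 and Irf1 were higher in both ovx samples, by 1.06 ± 0.62, 0.82 ± 0.54 and 0.67 ± 0.38, and Gbp2 differed by -0.40 ± 0.31; none passed, with limma adjusted p values of 0.804 to 0.844. Bst2 and Gbp2 thus lay on the other side of 0 from the transcription factors and Oasl2 in these cells.

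The difference of the ovx effects, MaSC-enriched minus luminal, asks whether ovariectomy acted unlike in the fractions. By limma 0 of 27 members passed, and 0 had an unadjusted p under 0.05, against 5.12% of all tested genes. Of all 20995 probes 0 passed (0%) and 952 (4.53%) had an unadjusted p under 0.05. The 6 members with the smallest p were Gbp2 (0.94 ± 0.44), Igtp (0.85 ± 0.58), Oasl2 (-0.81 ± 0.58), Rtp4 (-0.64 ± 0.49), Isg20 (-0.80 ± 0.65) and Stat2 (-1.03 ± 0.88), all with a limma adjusted p of 0.9999. The medians were -0.11 over the members and 0.06 over all tested genes.

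The replicate pools of a group differed from each other in the level of many members. In the control replicate 2 pool, 15 of 27 members (55.6%) were below the control replicate 1 pool in both fractions, against 27.5% of all tested genes; in the ovx replicate 2 pool, 11 of 27 (40.7%) were below the ovx replicate 1 pool in both fractions, against 29.1%. The median of replicate 2 minus replicate 1 was -0.59 in control MaSC-enriched, -0.37 in control luminal, -0.46 in ovx MaSC-enriched and 0.01 in ovx luminal cells, beside 0.09, 0.04, -0.03 and -0.01 over all tested genes. Of the 21 members above background in all 4 control samples, 13 were below in both fractions, and of the 21 above it in all 4 ovx samples, 10 were. The same share was not taken over all genes above background, so these counts have nothing to be set against. Irf9, which encodes a DNA-binding factor of the type I response, had 11.57 and 10.53 in control MaSC-enriched and 11.41 and 10.28 in control luminal cells, while its 4 ovx values lay between 11.16 and 11.58. It was named after its values were seen. The Stat2 values given above were likewise lower in the control replicate 2 pool by over 1 log2 unit in both fractions. Parp9 was not above background in either control MaSC-enriched sample, and Oasl1 was not in either sample of the control replicate 1 pool, so no size is given for them. Marker signal differed between the pools too. In MaSC-enriched samples the endothelial sum was 10600 in ovx replicate 2 against 25399 in ovx replicate 1, and 8870 in control replicate 2 against 17861 in control replicate 1. The luminal marker sums ran the same way, 39963 against 61445 in ovx and 25759 against 49773 in control MaSC-enriched samples. The immune sums did too, 2771 against 7164 and 2853 against 3864. The fibroblast sums ran the other way, 15901 against 12565 in ovx and 23926 against 19757 in control MaSC-enriched samples. Proliferation sums did as well, 7852 against 6424 and 39721 against 7794. In luminal samples the endothelial sums were higher in replicate 2, 3741 against 2982 in ovx and 2371 against 2049 in control mice. So were the immune sums, 1201 against 864 and 1647 against 789. The dim array was that of control MaSC-enriched replicate 1. Beadchips were uneven as well. In both treatments MaSC-enriched replicate 1 was run on beadchip 1 only and luminal replicate 2 on beadchip 2 only. The remaining samples were run on both, so beadchip was uneven between the fractions too. The part of these in the differences between pools was not tested. These are differences between 2 pools and have no test.

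Genes that sense viral nucleic acid or carry the interferon signal were described from a separate list of 26, with 21 tested. Between the fractions 2 were called higher and 2 lower in ovx mice (19% of 21, against 14.6% of all genes), and 1 higher and 2 lower in control mice (14.3%, against 11.8%). Socs1, the feedback inhibitor of Janus kinases, was higher in MaSC-enriched cells by 1.82 ± 0.36 in ovx and 1.93 ± 0.36 in control mice (limma adjusted p = 0.0182 and 0.018). Socs1 was above background on only 1 of 3 luminal arrays in each treatment, so these sizes rest on luminal values near background. Ddx58, which encodes the RNA sensor RIG-I, was lower, with differences of -1.89 ± 0.39 in ovx and -1.73 ± 0.39 in control mice (limma adjusted p = 0.0225 and 0.0355), and Tlr3, the endosomal sensor of double-stranded RNA, was lower too (limma adjusted p = 0.0277 and 0.0462). Tlr3 was not above background on any MaSC-enriched array, which makes it at least 1.56-fold lower in ovx mice and gives no bound above 1 in control mice. Ddx58 and Tlr3 thus had the same sign as Dhx58. Ifngr1, an interferon gamma receptor chain, was higher in MaSC-enriched cells of ovx mice by 1.22 ± 0.30 (limma adjusted p = 0.0382) and differed by -0.06 ± 0.30 in control mice; the difference between these effects did not pass (limma adjusted p = 0.842). Ikbke, a kinase of the sensing pathway, differed by 1.14 in control mice and did not pass. A dimmer probe of the kinase gene Jak1, ILMN_1213278, was not above background on the ovx luminal arrays and was at least 4.32-fold higher in ovx MaSC-enriched cells (limma adjusted p = 0.0323), while the brightest Jak1 probe differed by 0.05.

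Between ovx and control mice 0 of the 21 passed in either fraction. The smallest p values in MaSC-enriched cells belonged to Ikbke (-1.15), Ifngr1 (0.78), the receptor chain gene Il10rb (0.62) and the adaptor gene Myd88 (0.68), and in luminal cells to Irf8 (1.26), the kinase gene Tbk1 (0.71), the adaptor gene Ticam1 (0.72) and Ifngr1 (-0.50). For the difference of effects they belonged to Ifngr1 (1.28), Irf8 (-1.80), Ikbke (-0.90) and Jak1 (-1.14). Ifnb1 and Ifng, which encode interferon beta and gamma, were not above background in any sample, nor were Ifnar1 and Tlr7.

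A second list of 34 further interferon-induced genes had 21 tested. Between the fractions 2 were called higher and 0 lower in each treatment (9.52%, against 14.6% of all genes in ovx and 11.8% in control mice). Cxcl9, a chemokine gene induced by interferon gamma, was higher in MaSC-enriched cells by 2.23 ± 0.48 in ovx and 2.63 ± 0.48 in control mice (limma adjusted p = 0.025 and 0.0166). Ifi47, an immunity-related GTPase gene, was higher by 2.07 ± 0.44 in ovx mice (0.0239) and differed by 1.18 ± 0.44 in control mice (0.138). Ifitm3, an antiviral membrane protein gene, was higher by 1.19 ± 0.29 in control mice (0.044) and differed by 0.33 ± 0.29 in ovx mice (0.556). Lgals3bp, a secreted glycoprotein gene, differed by -1.40 and -1.44 with limma adjusted p values of 0.0602 and 0.0614, the GTPase gene Tgtp1, not above background in ovx luminal cells, by at least 2.16-fold in ovx mice, and Trim21 by -0.98 in control mice, and none of these passed. Dimmer probes of 2 genes passed in both treatments: ILMN_1214071 of Ifitm1 was higher in MaSC-enriched cells by 3.18 and 2.41, and ILMN_3093622 of Adar was lower, with a difference of -1.59 in ovx mice and, not above background in control MaSC-enriched cells, at least 1.68-fold lower in control mice, while their brightest probes did not pass.

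Between ovx and control mice 0 of these 21 genes passed in either fraction. In MaSC-enriched cells the smallest p values belonged to Trim21 (0.78), Lgals9 (0.74), Tgtp1 (0.96) and Samhd1 (0.44), and in luminal cells to Ifitm3 (0.92), Ifitm1 (0.89), Ifi47 (-1.14) and Uba7 (1.15). For the difference of effects they belonged to Ifitm3 (-0.86), Trim21 (0.82), Ifitm1 (-0.63) and Ifi47 (0.89). By their brightest probes, Ifitm3 and Ifitm1 were each higher in both ovx than in both control luminal samples, as Oasl2 was. Probe ILMN_1214071 of Ifitm1 lay the other way, with 6.88 and 7.11 in ovx luminal and 7.36 and 8.13 in control luminal cells, a difference of -0.75.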

How the data were processed

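Expression was measured on 12 Illumina arrays of 8 RNA samples from 4 mouse pools, with 4 RNAs run on a second array. The deposited table gives, per the file headers, an intensity and a detection p-value per probe (45281 probes); the deposited intensity values were neither scaled nor background-subtracted. The authors' deposited series table holds log2 values in the same rank order as the intensities of the same array, with array medians of 6.22 to 6.23; it served as an alternative. BeadStudio and limma are named in the submitters' processing notes. Normalization and tests here used limma 3.58.1 under R 4.3.3 (neqc with negative-control parameters inferred from detection p-values, offset 16, quantile normalization), and arrays of 1 RNA were averaged. A probe was tested when its mean detection p was under 0.05 in at least 2 of 8 samples (46.4% of probes). Of all probes, 34885 carry 1 gene symbol, 18 several and 10378 none. A model with 4 group means (4 residual and 3.22 prior degrees of freedom) gave 5 comparisons, adjusted by Benjamini-Hochberg over 20995 probes. The number of mouse pools limits the precision. A fold written "at least" sets arrays below background to their lowest detected signal.

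Fractions of a pool are paired by the labels: deviations from group means correlated at 0.367 (control pools) and 0.135 (ovx pools). Samples that share only a replicate number correlated at 0.587 (MaSC-enriched) and 0.279 (luminal). The members, the further lists and the tests were chosen with earlier results of these data known. Values in every sample are given for members with a probe past the threshold, the 6 members with the smallest p in each comparison and the 4 with the highest mean; of the further lists, the called genes and up to 4 with the smallest p are named. Alternatives were the background correction, the offset, the filter, the deposited table, the probe per gene, the samples fitted, beadchip and pool blocks, and leaving out each sample. The fit was tested on simulated data.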

Additional observations from a re-analysis of the deposited data

How the results depend on the processing

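The 0 member genes past the threshold for ovx against control in either fraction, and for the difference of effects, stayed at 0 under every alternative run. Between fractions the member genes past the threshold were 3 in ovx and 0 in control mice. In control mice they became 1 without background correction, with an offset of 50, with the deposited table, without the filter on dim probes, and with detection in all samples of a group; 3 with the mean of a gene's probes; 2 with all arrays and the beadchip as a block; 2 with the mouse pool as a replicate block and 4 as a random block; 5 without the control replicate 2 pool; and 0 to 3 with single samples left out. In ovx mice they became 5 with detection in all samples of a group, 11 with only the groups compared or without the control replicate 2 pool, 7 with the beadchip as a block, 0 on beadchip 1 alone, 7 with the pool as a replicate block, 8 as a random block, and 0 to 8 with single samples left out. The cause of these changes was not tested. Where samples were left out, fewer were fitted as well.

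The member median was -0.14 in ovx mice on beadchip 2 alone. With single samples left out it ran from -0.30 to 0.47 in ovx and from 0.21 to 0.72 in control mice. Bst2 reversed to 0.28 for ovx against control in MaSC-enriched cells without control MaSC-enriched replicate 1, and was -1.83 when that group's other replicate was left out. Of the other values of single genes, 617 kept their direction and their side of the threshold, 35 lost and 50 gained the call.

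Over all probes, ovx against control in MaSC-enriched cells called 16, but 26 without the filter, 25 with detection in all samples of a group, 0 with only the groups compared or on either beadchip alone, 81 with the beadchip as a block, 410 without the control replicate 2 pool, 36 with the replicate number as a replicate block, and 0 to 583 with single samples left out. In luminal cells the count was 33, but 3 with only the groups compared, 137 with the beadchip as a block, 0 on beadchip 1 and 1 on beadchip 2 alone, 52 with the replicate number as a replicate block, and 0 to 82 with single samples left out. The difference of effects called 0, but 4 without background correction, 2 with an offset of 50, the deposited table, detection in all samples of a group or the pool as a random block, 1 without the filter and 9 with the beadchip as a block. MaSC-enriched against luminal called 2122 in control mice, but 475 with only the groups compared, 181 on beadchip 1 alone, 4528 without the control replicate 2 pool, and 656 to 5503 with single samples left out. In ovx mice it called 2596, but 4337 with only the groups compared or without the control replicate 2 pool, 262 on beadchip 1 alone, and 508 to 3779 with single samples left out.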
